A study of Homo sapiens with 4 samples.

Results

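NEAT1, MALAT1, PVT1 and 5 microRNA host RNAs (MIR503HG, MIR22HG, MIR100HG, MIR17HG and MIR31HG) were followed through treatment with CPYPP in 2 human cancer cell lines. These 8 long noncoding RNAs were chosen by gene symbol from the 61806 genes of the count table, after earlier results of the same libraries had been seen, so their changes with CPYPP are given as descriptions with no test. CPYPP is a small molecule that blocks the DOCK family of Rac activators, and the study used it as a trigger of paraptosis, a form of cell death in which the cytoplasm fills with vacuoles. RNA was sequenced from MDA-MB-231 cells, a breast cancer line, and MDA-MB-435 cells, now classed as melanoma, each left as control or given CPYPP at 10 µM for 6 h. There was 1 library per condition, so no difference has a replicate check. The intervals given with folds and shares are 95% exact binomial (Clopper-Pearson) intervals and cover counting error only.

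Long noncoding RNAs are spliced or unspliced transcripts that are not translated. NEAT1 is the scaffold of paraspeckles, nuclear bodies built when the RNA binds proteins such as NONO and SFPQ, and it is known to rise under many kinds of cell stress. MALAT1 lies close to NEAT1 on the same chromosome and gathers at nuclear speckles, where splicing factors are stored. A microRNA host RNA is the long primary transcript from which Drosha and DGCR8 cut the hairpin of a microRNA, and the rest of the transcript may be spliced, given a poly(A) tail and kept. The libraries were made from poly(A)-selected RNA, so they measured host RNAs and not mature microRNAs.

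The host RNAs carry microRNAs of several seed families, and these are shown because the seed decides which mRNAs a microRNA pairs with. The sequences are from RefSeq (GRCh38.p14), and capitals mark the seed, bases 2 to 8.
miR-503-5p (MIR503HG): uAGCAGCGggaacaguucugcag
miR-424-5p (MIR503HG): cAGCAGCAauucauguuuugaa
miR-22-3p (MIR22HG): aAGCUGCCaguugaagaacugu
miR-100-5p (MIR100HG): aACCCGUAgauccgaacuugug
let-7a-5p (MIR100HG): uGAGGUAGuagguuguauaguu
miR-125b-5p (MIR100HG): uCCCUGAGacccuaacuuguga
miR-17-5p (MIR17HG): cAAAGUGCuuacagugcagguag
miR-20a-5p (MIR17HG): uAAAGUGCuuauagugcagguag
miR-18a-5p (MIR17HG): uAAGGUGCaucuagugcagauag
miR-19a-3p (MIR17HG): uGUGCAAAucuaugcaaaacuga
miR-19b-3p (MIR17HG): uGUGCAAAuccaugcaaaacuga
miR-92a-3p (MIR17HG): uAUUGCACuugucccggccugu
miR-31-5p (MIR31HG): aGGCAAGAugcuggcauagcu
The seeds of miR-503-5p and miR-424-5p differed at base 8 and were the same at bases 2 to 7. The full seed of miR-424-5p was shared with 6 other mature microRNAs, among them miR-15a-5p, miR-16-5p and miR-195-5p. Within MIR17HG, miR-17-5p and miR-20a-5p had the same seed, and so did miR-19a-3p and miR-19b-3p. Let-7a-5p, which comes from MIR100HG, shared its seed with 10 others.

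The libraries held between 17196385 and 22663954 counts, and between 14951 and 16198 genes had at least 10 counts. The markers separated the 2 lines in part. SOX10, the neural crest factor of melanocytes, had 0 and 1 counts in the MDA-MB-231 control and CPYPP libraries and 3031 and 707 in those of MDA-MB-435, and KRT19, an epithelial keratin, had 3953 and 2225 against 4 and 0. CDH1, EPCAM, KRT7 and KRT8 were also higher in MDA-MB-231 and DCT in MDA-MB-435. KRT18 and MITF were high in both lines, with 8212 and 5740 counts and 1585 and 1405 counts in the MDA-MB-231 and the MDA-MB-435 control. The pigment cell markers TYR and MLANA had 14 or fewer counts in every library, and PMEL had 34 and 29 in MDA-MB-231 cells, against 13 and 4 in the other line. The share of counts from the mitochondrial genome was 5.34% and 4.21% in MDA-MB-231 cells, against 4.73% and 3.55% in MDA-MB-435, lower after CPYPP in both; its part in the results below was not tested. Fewer cells holding an RNA and less RNA per cell cannot be told apart in such bulk libraries.

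A fold over 2 between control and CPYPP libraries, after scaling each pair by the trimmed mean of M values (TMM), was used to sort genes as higher or lower. In MDA-MB-231 cells, 7 of the 8 RNAs had enough counts, of which 2 were higher after CPYPP (MIR22HG and MIR100HG) and 1 was lower (MIR503HG). Over all 16441 genes tested in that line, 5.40% were higher and 5.43% lower. In MDA-MB-435 cells all 8 were tested; 5 were higher (NEAT1, MIR22HG, MIR100HG, MIR17HG and MIR31HG) and 1 was lower (MIR503HG), beside 4.02% higher and 9.75% lower over 16527 genes. MIR22HG and MIR100HG were thus higher and MIR503HG lower in both lines, as were 1.23% and 1.56% of 14262 genes tested in both. Because the RNAs were chosen on these same changes, nothing is read from their counts against those shares. Long noncoding RNA genes as a class more often lay lower than higher, with 9.97% higher and 16.4% lower of 2056 in the MDA-MB-231 line, and 5.04% and 27.0% of 2402 in the other. Genes were tested if either library had 10 counts, and the controls were deeper (22359735 against 17196385 counts, and 22663954 against 19489282). The part of this filter in the class shares was not tested. Over all genes in MDA-MB-231, a minimum of 50 counts left 294 higher and 217 lower. For the RNAs described here, the median log2 fold change was 0.25 and 1.09 in the 2 lines, that of all genes -0.01 and -0.02, and that of long noncoding RNA genes -0.17 and -0.46.

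**Figure D1:**
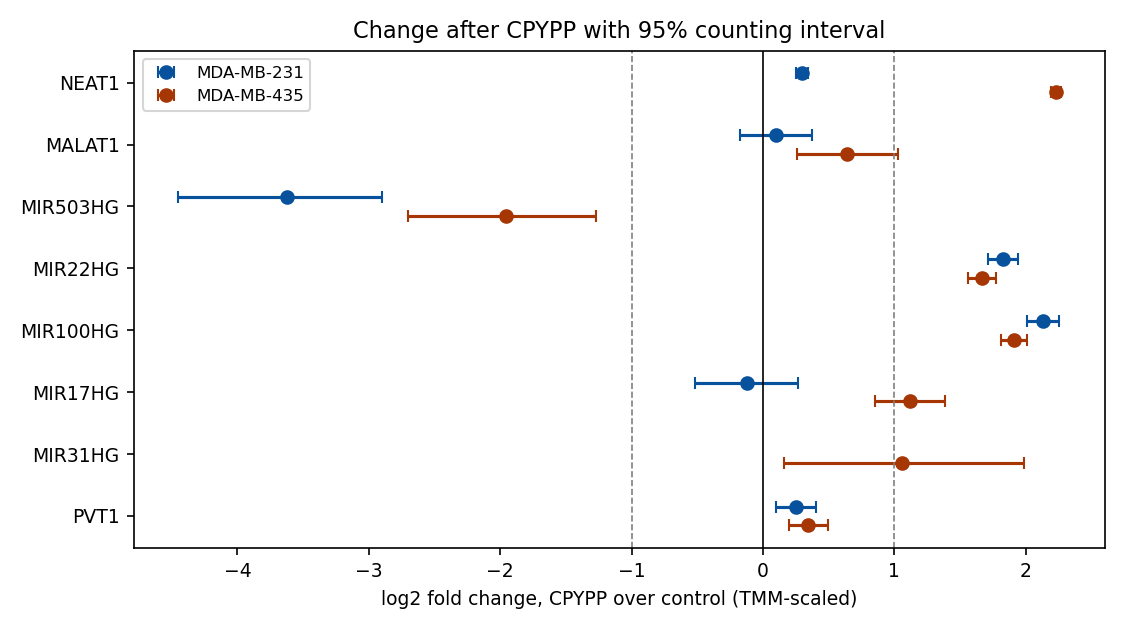
The log2 fold change of each RNA (x axis, CPYPP over control, TMM-scaled) in MDA-MB-231 (blue) and MDA-MB-435 (brown), with bars for the 95% counting interval and dashed lines at a fold of 2. MIR503HG lies left of the lower dashed line in both lines, MIR22HG and MIR100HG lie right of the upper one in both, and NEAT1 lies at 0.30 and 2.23.

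MIR503HG, the host of miR-503 and miR-424, had the deepest fall. This RNA is transcribed from chromosome X (GRCh38, chrX:134543119-134546642, minus strand), and its microRNAs belong to the wider miR-16 family, which is known to target cell cycle genes. It had 269 counts in control MDA-MB-231 cells and 16 after CPYPP, a fall of 12.3-fold (interval 7.45 to 21.9). In MDA-MB-435 cells it had 105 counts in the control and 21 after CPYPP, which is 3.88-fold lower (2.41 to 6.52). The controls themselves differed, MDA-MB-435 being 2.75-fold lower (2.18 to 3.47). Of the 16441 genes tested in MDA-MB-231 only 1 fell further, whereas 280 of 16527 did so in MDA-MB-435, or 62 of the 12417 with at least 50 counts there. On one model of both lines (edgeR, 4 libraries), the log2 fold change was -2.83 ± 0.43 (SE). The SEs of this model, here and for the RNAs below, borrow their spread from all genes. DESeq2 gave -2.82 ± 0.75. As the treated counts were 16 and 21, the residual level was known only within wide limits. In RPKM, counts scaled to exon length and library size, it was 0.323 after CPYPP in MDA-MB-231, from 4.0 in the control, and 0.364 in MDA-MB-435, from 1.46.

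The genes on either side of MIR503HG were not lower to that degree. HPRT1, a purine salvage enzyme 22606 bases away, had 1947 and 1274 counts in MDA-MB-231 (fold 0.893, interval 0.832 to 0.959) and 1930 and 1879 in MDA-MB-435 (1.26, 1.18 to 1.34). PLAC1, a placental gene on the other side, had 14 and 9 counts and 66 and 67. Neither gene was past a fold of 2 in either line. The promoter of MIR503HG is shown because the mature miR-424-5p lies within it, in capitals, on the same strand from 71 to 50 bases before the RefSeq start site. The window (GRCh38.p14, chrX:134546581-134546880, minus strand, 250 bases before the start and 50 after) reads 5′ to 3′:
MIR503HG: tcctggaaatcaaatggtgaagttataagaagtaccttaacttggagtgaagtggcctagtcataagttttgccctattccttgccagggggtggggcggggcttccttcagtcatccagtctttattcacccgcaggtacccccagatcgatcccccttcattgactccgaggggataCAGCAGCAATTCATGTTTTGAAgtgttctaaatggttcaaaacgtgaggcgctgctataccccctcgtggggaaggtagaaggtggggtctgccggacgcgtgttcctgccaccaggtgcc
The miR-424 gene thus straddles the 5′ end of the host as listed, with 29 bases inside it and the mature miR-424-5p outside it. The miR-503 gene lies further in, within the first part of the transcript. Both microRNA genes were listed at 0 in all 4 libraries.

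MIR22HG, the host of miR-22, was higher by a like amount in both lines. The gene lies at chr17:1711447-1717174 on the minus strand, and miR-22 is a widely expressed microRNA placed in the exons of all 19 annotated MIR22HG transcripts. Counts were 846 and 2201 in control and treated MDA-MB-231 cells and 1013 and 2489 in MDA-MB-435 cells. The folds were 3.55 (3.28 to 3.85) in MDA-MB-231 and 3.17 (2.94 to 3.41) in MDA-MB-435. The controls differed by 1.12-fold (1.02 to 1.23). In MDA-MB-231, 282 genes had a larger fold, and in MDA-MB-435, 222. The model of both lines gave a log2 fold change of 1.70 ± 0.12 (SE). The first 652 bases of MIR22HG overlap WDR81, which runs on the other strand, and whether the counting used strand is not given in the sources used here. WDR81 did not move with the host, having 339 and 261 counts in MDA-MB-231 (fold 1.05) and 2029 and 1239 in MDA-MB-435 (0.787). TLCD2, a membrane protein gene 1070 bases from the other end, had 155 and 149 counts (1.31, 1.04 to 1.65) and 96 and 116 (1.56, 1.18 to 2.06).

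MIR100HG, which carries miR-100, let-7a-2 and miR-125b-1 in its introns, was the other host that was higher in both lines. It is a long gene (chr11:122028325-122556721, minus strand). Control and treated counts were 738 and 2364 in MDA-MB-231, a fold of 4.37 (4.02 to 4.76). In MDA-MB-435 they were 1119 and 3264, a fold of 3.76 (3.51 to 4.03). The model of both lines gave 1.97 ± 0.12 on the log2 scale (SE). UBASH3B, a phosphatase gene next to it, had 4078 and 3646 counts (1.22) and 3929 and 2624 (0.861), on different sides of 1. MIR100HG was the lowest of the 7 detected RNAs per length in control MDA-MB-231 cells and behind only MIR22HG and NEAT1 after CPYPP.

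NEAT1, at chr11:65422774-65445540 on the plus strand, had a much larger fold in one line than in the other. It had 8748 counts in control MDA-MB-231 cells and 7879 after CPYPP, which after scaling is a fold of 1.23 (1.19 to 1.27). In MDA-MB-435 cells it went from 7484 to 27192 counts, a fold of 4.69 (4.57 to 4.81). The treated MDA-MB-435 library stood far above the other 3, which lay close together, and NEAT1 took 0.140% of its counts against 0.0330% in its control. In that library NEAT1 was at percentile 96.0 of the genes with at least 10 counts, by reads per kb, and only 93 genes had a larger fold. The counting intervals of the 2 folds are far apart, but with 1 library per condition the difference between lines was not tested. The common log2 fold change of 1.22 ± 0.33 (SE) averages over that difference, and DESeq2 gave a wider SE (1.23 ± 0.86). The table counts the whole locus, so the short and the long NEAT1 isoforms, of which only the short one ends in a regular poly(A) tail, were not separated.

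The neighbours of NEAT1 did not share this pattern. FRMD8, which lies 9249 bases before it, had 779 and 740 counts in MDA-MB-231 (fold 1.30, interval 1.17 to 1.44) and 1671 and 949 in MDA-MB-435 (0.732, 0.676 to 0.794). The gene ENSG00000173727, 9717 bases after it, had 127 and 88 and then 508 and 493 counts (0.946 and 1.25).

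MALAT1 was low in every library. At chr11:65497688-65506516 on the plus strand, it had 253 and 199 counts in MDA-MB-231 cells and 106 and 128 in MDA-MB-435. The folds with CPYPP were 1.07 (0.887 to 1.30) and 1.56 (1.19 to 2.03), neither past 2. The common log2 fold change was 0.31 ± 0.24 (SE), and 0.33 ± 0.44 by DESeq2. In the controls MALAT1 was 2.56-fold lower (2.03 to 3.24) in MDA-MB-435. Per kb of exon it stood at percentile 30.9 and 29 of the genes with at least 10 counts in MDA-MB-231 cells and at 17.1 and 20.4 in MDA-MB-435. MALAT1 is usually among the most abundant transcripts of cultured cells, and its mature end is formed by RNase P without a regular poly(A) tail. In the same table TALAM1, an antisense gene, covers 7205 of the 8829 bases of MALAT1, or 81.6%, and was listed at 0 in all 4 libraries. Other genes cover a further part, so that 88.5% of MALAT1 was shared with some other listed gene and 1014 bases were not. The same counts scaled to those 1014 bases alone would put MALAT1 at 11.1 and 11.9 RPKM in MDA-MB-231 cells. In MDA-MB-435 they would put it at 4.36 and 6.57. Scaled to the whole exon length, the 4 levels were 1.28, 1.37, 0.501 and 0.754. This alternative was chosen after seeing the data. It takes every counted read to lie in the unshared bases, which was not tested. The part of the overlap and of the poly(A) selection in this low level was not tested, and the level of MALAT1 is therefore uncertain. The fold between 2 libraries does not depend on the length used.

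**Figure D2:**
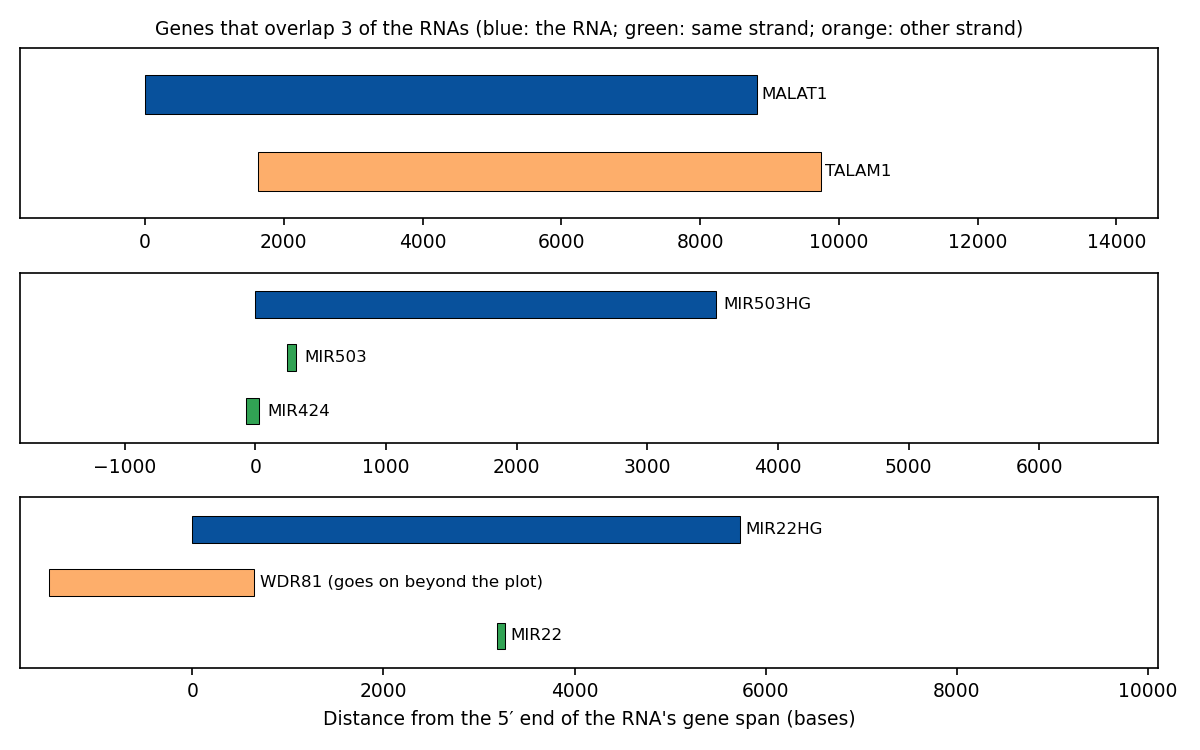
The spans of MALAT1, MIR503HG and MIR22HG (blue) with genes of the same strand (green) and of the other strand (orange) that overlap them, by distance in bases from the 5′ end of each RNA's gene. TALAM1 covers 81.6% of MALAT1, MIR424 straddles the 5′ end of MIR503HG, and WDR81 covers the first 652 bases of MIR22HG.

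MIR17HG, the host of the miR-17-92 cluster of growth-promoting microRNAs, was past a fold of 2 in MDA-MB-435 alone. Located at chr13:91347820-91354579 on the plus strand, it had 138 and 93 counts in MDA-MB-231, a fold of 0.920 (0.699 to 1.21). In MDA-MB-435 it had 190 and 320 counts, a fold of 2.17 (1.81 to 2.61). The treated MDA-MB-435 library was the highest of the 4 and the treated MDA-MB-231 library the lowest. On the log2 scale the folds were -0.12 and 1.12. The interval in MDA-MB-231 includes 1 and that in MDA-MB-435 includes 2, and the difference between lines was not tested. With scaling to total counts the MDA-MB-435 fold was under 2.

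MIR31HG, the host of miR-31, was not detected in MDA-MB-231. The gene (chr9:21380073-21559891, minus strand) had 0 counts in both MDA-MB-231 libraries, which allows a level of up to 0.00808 and 0.0110 RPKM at 3 counts. MDA-MB-435 cells had 18 counts in the control and 29 after CPYPP, a fold of 2.08 (1.12 to 3.97) that rests on few counts and was 1.87 with total counts and 1.92 with upper-quartile scaling. The MDA-MB-435 control was at least 5.6-fold above the MDA-MB-231 control, taking 3 counts in that library as the limit. Most genes around it had the same difference between lines. From HACD4 to LINC01239, a stretch of 1825 kb (chr9:20999509-22824213), 11 of the 12 genes with at least 10 counts in either control had at most 2 in each MDA-MB-231 library. The exception was CLIC4P1, a pseudogene of CLIC4, with 16 and 15 counts in MDA-MB-231 cells and 34 and 18 in MDA-MB-435 cells. Whether it shares reads with its parent gene was not tested. The stretch was looked for after the counts of MIR31HG had been seen. MTAP, a methionine salvage enzyme, had 1 and 2 counts in MDA-MB-231 cells against 2917 and 2237 in MDA-MB-435. CDKN2A, which encodes the cell cycle inhibitor p16, had 0 and 0 against 1894 and 1354, and KLHL9 had 0 and 0 against 767 and 530. FOCAD, just outside the stretch, was detected in MDA-MB-231 with 67 and 76 counts. MDA-MB-231 is known as a line that lacks CDKN2A; the genome of these cells was not tested.

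PVT1 differed little. This RNA, which lies beside the MYC oncogene (chr8:127794526-128187101, plus strand), had 738 and 643 counts in MDA-MB-231 cells and 762 and 750 in MDA-MB-435. Its folds of 1.19 (1.07 to 1.32) and 1.27 (1.15 to 1.41) were of like size, and the controls were level at 0.963 (0.870 to 1.07). MYC itself had 2644 and 2162 counts in MDA-MB-231 (fold 1.12, interval 1.05 to 1.18) and 1773 and 3107 in MDA-MB-435 (2.26, 2.13 to 2.40). MYC was thus past a fold of 2 in MDA-MB-435 while PVT1 was not in either line.

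**Figure D3:**
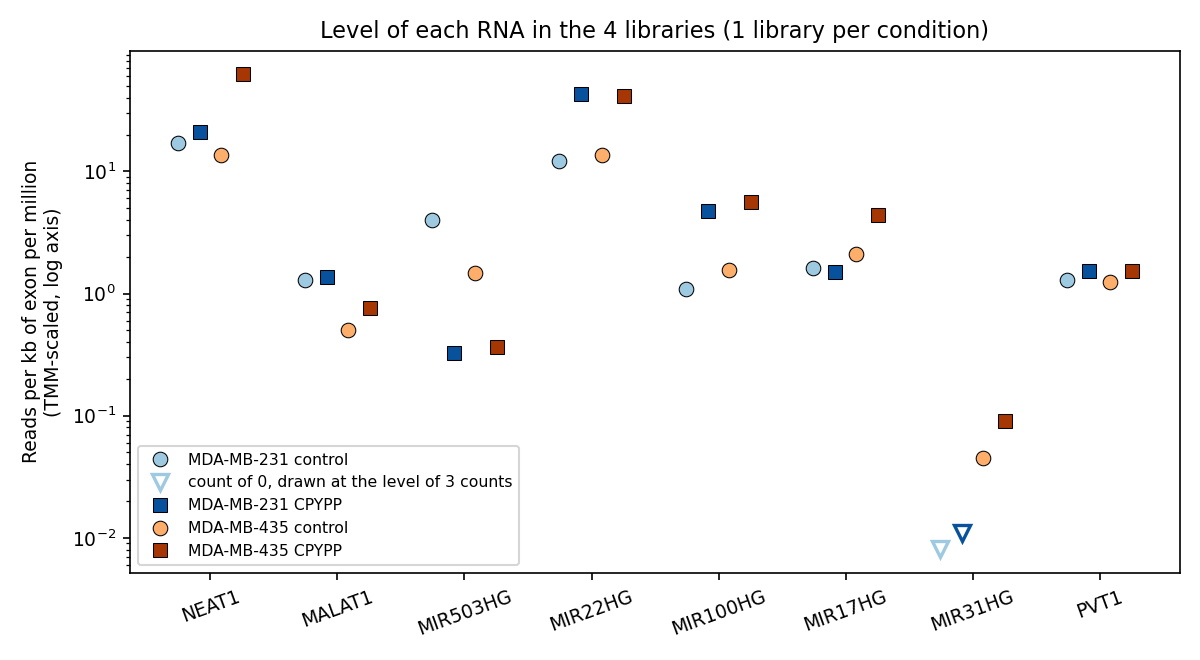
Levels of the 8 RNAs in RPKM (counts scaled to exon length and library size, log axis) in the 4 libraries, circles for control and squares for CPYPP; open triangles stand for a count of 0, drawn at the level of 3 counts. The treated MDA-MB-435 library has the highest NEAT1 level at 62.2, and both treated libraries have MIR503HG under 0.4.

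Between the untreated lines, 3 of the 8 RNAs were past a fold of 2. MALAT1 and MIR503HG were lower and MIR31HG higher in MDA-MB-435, where 21.9% and 23.5% of 18269 genes were lower and higher. NEAT1 (0.798), MIR22HG (1.12), MIR100HG (1.41), MIR17HG (1.28) and PVT1 (0.963) were within a fold of 2. Per length, NEAT1 led in the MDA-MB-231 control with 17.2 RPKM, followed by MIR22HG with 12.2 and MIR503HG with 4.0. In the MDA-MB-435 control NEAT1 and MIR22HG were level at 13.7 and 13.6, their ratio of 1.01 having an interval of 0.944 to 1.08, and MIR100HG, MIR503HG and PVT1, at 1.55, 1.46 and 1.25, were neighbours whose intervals included 1. After CPYPP, MIR22HG led in MDA-MB-231 with 43.0 against 21.0 for NEAT1, and NEAT1 led in MDA-MB-435 with 62.2 against 41.7 for MIR22HG. In both treated libraries MIR503HG was the lowest of the RNAs detected apart from MIR31HG, at 0.323 and 0.364, whereas in the MDA-MB-231 control it had been behind only NEAT1 and MIR22HG.

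The 8 RNAs overlap 19 microRNA genes on their own strand, MIR424 by only 29 bases. Of these, 14 were listed at 0 in all 4 libraries, and the highest count was 5, for MIR125B1 in treated MDA-MB-435 cells. All 10 microRNA genes that overlap an exon of a host transcript (GENCODE v29) were at 0, while 5 of the 9 outside exons had at least 1 count: MIRLET7A2, MIR125B1, MIR100, MIR31 and MIR1205. No change of a microRNA can be read from such counts. The microRNA precursors carry no poly(A) tail, and how reads shared by 2 genes were assigned is not given in the sources used here.

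RefSeq promoter windows were found for 6 of the 8 RNAs. MIR22HG is shown as a host that was higher in both lines (GRCh38.p14, chr17:1716161-1716460, minus strand, within the listed span of the gene):
MIR22HG: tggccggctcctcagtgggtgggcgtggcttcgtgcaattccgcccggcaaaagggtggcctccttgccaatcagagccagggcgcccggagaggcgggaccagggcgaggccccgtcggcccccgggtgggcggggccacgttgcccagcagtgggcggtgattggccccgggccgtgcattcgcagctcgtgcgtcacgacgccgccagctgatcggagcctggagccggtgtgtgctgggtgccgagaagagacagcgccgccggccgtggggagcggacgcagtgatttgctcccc
Its GC content was 72.3%, against 52.3% for the MIR503HG window. Both strands were searched for a heat shock element (GAANNTTC), an antioxidant response element (TGACNNNGC), an amino acid response element (TGATGNAA), a cyclic AMP response element (TGACGTCA) and an E-box (CACGTG). The MIR22HG window held none of them. Matches were found for TGACNNNGC alone, in 1 window of MALAT1 and in that of MIR503HG, and 13.3% of all 35116 windows of the same length hold these letters. A match is a description of the letters only.

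The table holds 79 other microRNA host RNAs by symbol, most of them too low to compare. In MDA-MB-231, 24 were tested, of which 3 were higher (MIRLET7BHG, MIR29B2CHG and MIR193BHG) and 3 lower (MIR762HG, MIR497HG and MIR4453HG) past a fold of 2. These shares of 12.5% and 12.5% stood beside 5.40% and 5.43% of all genes. Of long noncoding RNA genes, 9.97% were higher and 16.4% lower in that line. In MDA-MB-435, 34 were tested, with 3 higher (MIR29B2CHG, MIR99AHG and MIR4300HG) and 7 lower (MIR137HG, MIR646HG, MIR4280HG, MIR155HG, MIR210HG, MIR130AHG and MIR378D2HG). These shares of 8.82% and 20.6% stood beside 4.02% and 9.75% of all genes. Of long noncoding RNA genes, 5.04% were higher and 27.0% lower there. Among the hosts past a fold of 2, MIR497HG in MDA-MB-231 and MIR4300HG and MIR130AHG in MDA-MB-435 had 14 or fewer counts in each library of that line. The interval of each of these folds included 1. MIR29B2CHG, host of miR-29b-2 and miR-29c, was the single one past a fold of 2 in both lines, with 58 and 103 counts in MDA-MB-231 (2.42, 1.74 to 3.40) and 6 and 22 in MDA-MB-435 (4.73, 1.86 to 14.3). MIR137HG, host of miR-137, had 1929 and 773 counts in MDA-MB-231 (fold 0.547) and 253 and 53 in MDA-MB-435 (0.270). MIR99AHG, which carries miR-99a, let-7c and miR-125b-2 and so is a counterpart of MIR100HG, had 319 and 499 counts in MDA-MB-435 (2.02, 1.75 to 2.33) and only 5 and 3 in MDA-MB-231. Some hosts with 50 or more counts in a line had changes within a fold of 2 there. MIRLET7A1HG (1.96) and MIR30DHG (1.53) were higher and MIR4280HG (0.534) lower in MDA-MB-231, while MIR193BHG (1.92) and MIR30DHG (1.68) were higher and MIRLET7IHG (0.512) and MIR1915HG (0.550) lower in MDA-MB-435. In MDA-MB-435, some hosts of low count fell further than MIR503HG with its 3.88-fold, namely MIR4280HG (40 and 4 counts, 7.76-fold, 2.80 to 29.8), MIR378D2HG (28 and 3 counts, 7.24-fold, 2.24 to 37.2) and MIR210HG (32 and 6 counts, 4.14-fold, 1.71 to 12.1), and all 3 intervals overlap that of MIR503HG. None of the tested hosts fell as far as MIR503HG in MDA-MB-231, where MIR4453HG, with 82 and 28 counts, had the deepest fall among those with at least 50 counts (2.15-fold, 1.38 to 3.42).

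**Figure D4:**
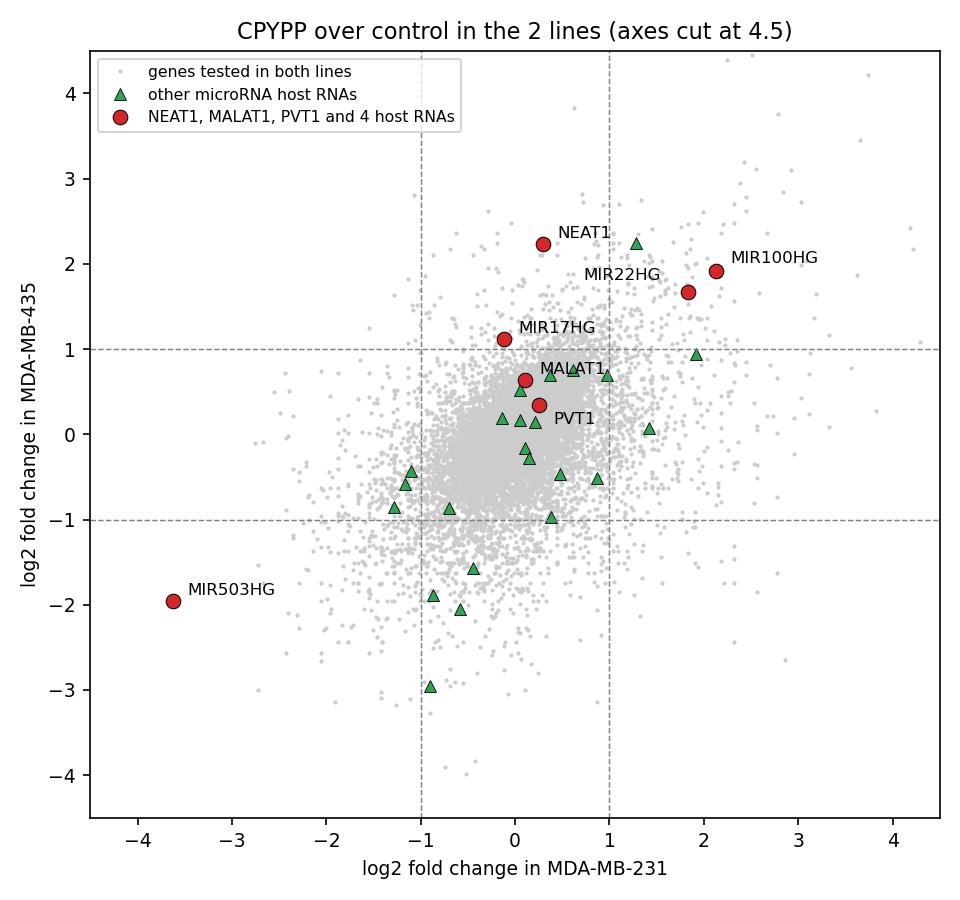
Log2 fold change with CPYPP in MDA-MB-231 (x axis) and MDA-MB-435 (y axis) for the genes tested in both lines (grey), other microRNA host RNAs (green triangles) and the RNAs described here (red), with dashed lines at a fold of 2. MIR503HG lies at -3.62 and -1.95, at the edge of the cloud, and NEAT1 lies high in MDA-MB-435 alone.

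For genes outside the 8, the effect of CPYPP common to both lines was tested by edgeR's quasi-likelihood method, taking the line as a block, with Benjamini-Hochberg adjustment over 16801 genes. At an adjusted p under 0.05, 4.39% of these genes were higher and 2.85% lower. With 4 libraries and 1 residual degree of freedom this test speaks of a shift shared by both lines and borrows its spread from all genes. The gene lists below were also chosen with earlier results of these libraries known. Their p-values and counts therefore describe these data only.

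Of 14 paraspeckle proteins, 2 rose and 0 fell by edgeR (3 and 0 at an unadjusted p under 0.05; 2 and 0 by DESeq2), and the median log2 fold change was 0.00049 beside -0.04 over all genes. The 2 were RBM14, needed for paraspeckle assembly, at 0.58 ± 0.12 (SE, edgeR adjusted p = 0.0148), and ZNF24, a zinc finger protein, at 0.51 ± 0.11 (edgeR adjusted p = 0.0196). The core partners of NEAT1 did not pass the test: NONO was at -0.01, SFPQ at 0.13 and PSPC1 at -0.16. No paraspeckle protein was past a fold of 2 in either line, the one in which NEAT1 was 4.69-fold higher included. By line, the median log2 fold change of the 14 was -0.10 in MDA-MB-231, with 9 below 0. In MDA-MB-435 it was 0.20, with 2 below 0. This difference between lines was not tested. Of 11 proteins of nuclear speckles or of MALAT1 processing and binding, none passed; the largest values were 0.47 ± 0.14 for POP1, a subunit of RNase P (edgeR adjusted p = 0.0679), and 0.40 ± 0.11 for SON, a speckle scaffold (edgeR adjusted p = 0.0540). At an unadjusted edgeR p under 0.05 these were the 2 that would pass, both higher and 0 lower, and DESeq2 with its own adjustment called SON alone.

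Of 16 microRNA processing genes, 3 rose and 0 fell by edgeR (4 and 1 at an unadjusted p under 0.05; 2 and 0 by DESeq2), and the median log2 fold change was 0.17. DGCR8, the partner of Drosha in cutting host transcripts, had 1124 and 1423 counts in MDA-MB-231 cells and 1517 and 2183 in MDA-MB-435, a common log2 fold change of 0.80 ± 0.12 (edgeR adjusted p = 0.00296). AGO2, the Argonaute that cleaves targets, was at 0.74 ± 0.11 (edgeR adjusted p = 0.00299), with folds of 1.73 and 1.71. AGO3, another Argonaute, was at 0.68 ± 0.18 (edgeR adjusted p = 0.0472), with folds of 2.07 and 1.31, and it was not called by DESeq2. Values for DROSHA (-0.03), the exporter XPO5 (-0.18) and DICER1 (0.32) did not pass.

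**Figure D5:**
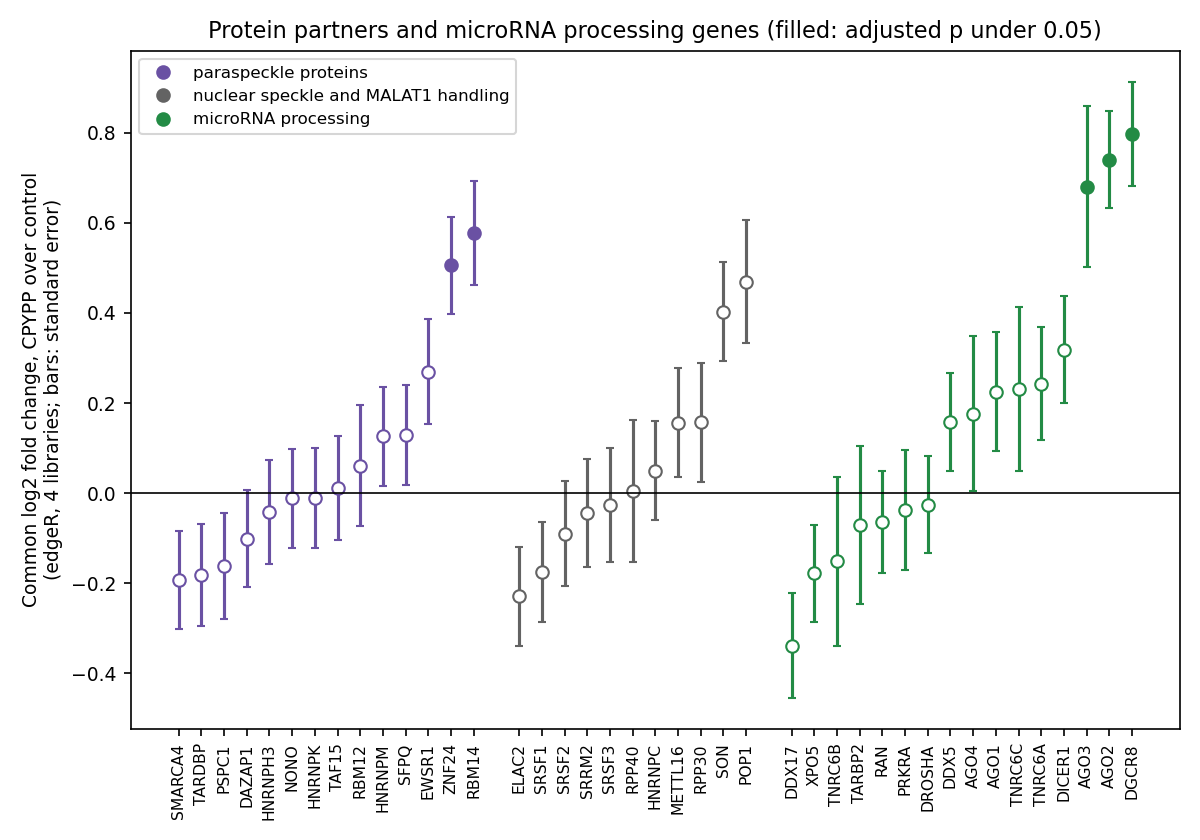
Common log2 fold change with CPYPP (y axis, edgeR over 4 libraries; bars are standard errors) for paraspeckle proteins, nuclear speckle and MALAT1 handling proteins, and microRNA processing genes. Filled points have an adjusted p under 0.05: RBM14 and ZNF24 among the first, none among the second, and DGCR8, AGO2 and AGO3 among the third.

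Among 18 protein-coding genes that hold a microRNA in an intron, 1 rose and 1 fell by edgeR (3 and 2 at an unadjusted p under 0.05, and 1 and 1 by DESeq2). CTDSP1, a small phosphatase gene that hosts miR-26b, had 845 and 256 counts in MDA-MB-231 cells and 2079 and 706 in MDA-MB-435, a common log2 fold change of -1.27 ± 0.14 (edgeR adjusted p = 0.000626). PANK3, a pantothenate kinase gene that hosts miR-103a-1, was at 0.53 ± 0.11 (edgeR adjusted p = 0.0149). Of the other microRNA host RNAs, 29 could be tested, of which MIR137HG fell (-1.28 ± 0.22, edgeR adjusted p = 0.00733) and MIR30DHG rose (0.64 ± 0.17, edgeR adjusted p = 0.0439), the latter not by DESeq2. Both sets of counts stand beside 4.39% higher and 2.85% lower over all genes in this test.

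Of 14 other well known long noncoding RNAs, 13 could be tested, 2 rose and 0 fell by edgeR (3 and 2 at an unadjusted p under 0.05; 1 and 0 by DESeq2). LINC-PINT, a p53-responsive RNA, had 422 and 796 counts in MDA-MB-231 cells and 1226 and 1820 in MDA-MB-435 (1.10 ± 0.15, edgeR adjusted p = 0.00239). KCNQ1OT1, an imprinted antisense RNA, had 160 and 347 and then 329 and 403 counts (1.05 ± 0.24, edgeR adjusted p = 0.0248), and it was not called by DESeq2. GAS5, the host of several small nucleolar RNAs, was at -0.30 ± 0.14 and NORAD at 0.15 ± 0.11, and neither passed. HOTAIR had 0 counts in both MDA-MB-231 libraries and 96 and 20 in MDA-MB-435. The 6 RNAs listed for want of a long poly(A) tail were looked at beside MALAT1. Of them RN7SK, RMRP, RPPH1 and RN7SL2 were listed at 0 in every library, TERC had at most 1 count and RN7SL1 between 27 and 63.

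The genes whose pattern was most like that of 4 of the RNAs were sought by the smallest distance over 3 log2 differences (CPYPP in each line and the difference of the controls) among 11083 genes with at least 50 counts in a library of each line. Nearest to NEAT1 were TSC22D3, a glucocorticoid-induced gene, with 92 and 59 counts in MDA-MB-231 cells and 103 and 378 in MDA-MB-435 (distance 0.625), XBP1, a factor of the unfolded protein response (0.654), and PPIF, a mitochondrial cyclophilin (0.667). MALAT1 had much closer neighbours, ESF1 (0.0244), FBXO34 (0.0855) and GMEB1 (0.100). No gene came near MIR503HG: FAM167A (1.96), TXNIP, an inhibitor of thioredoxin (1.98), and NUDT6 (2.01) were the closest. TXNIP had 8408 and 1550 counts in MDA-MB-231 cells and 1505 and 306 in MDA-MB-435. MIR22HG was closest to BRF2 (0.170), FOS, an immediate early gene (0.216), and MRNIP (0.296). These distances are over 3 differences from 4 libraries and describe likeness of values only.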

How the data were processed

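RNA was sequenced from 4 samples, 1 per condition. Per the labels, the deposited values are raw counts of reads per gene, made by the authors from poly(A)-selected RNA. The submitters' processing notes name cutadapt 1.9.1, HISAT2 2.2.1, HTSeq 0.6.1 and DESeq2, and the build GRCh37.p13, but the positions in the table are those of GRCh38: of 58254 identifiers also in GENCODE v29, 58196 overlapped their position there. The annotation and the strand setting are not given in the sources used here. The protocols for growth and treatment name MDA-MB-435 for every sample; lines were taken from the sample labels.

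The members and gene lists were chosen with earlier results of these data known. Named genes were the 8 RNAs, microRNA genes inside them, other host RNAs past a fold of 2 in both lines or with the largest changes at 50 or more counts, the listed partner genes with the largest common changes, the nearest genes within 500 kb, and the 3 genes most alike in pattern. Where others are named (CDKN2A, FOCAD, CLIC4P1 and the stretch around MIR31HG, MIRLET7BHG, MIR762HG, MIR497HG, MIR4300HG, the other hosts lower in MDA-MB-435, NONO, SFPQ, PSPC1, DROSHA, XPO5, DICER1, GAS5, NORAD and HOTAIR), they were chosen after their values were seen. Of the genes chosen for these lists, 1 is not reported here.

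Folds within a line used TMM factors (edgeR 4.0.16, R 4.3.3) computed on genes with at least 10 counts in 1 of the 2 libraries, the filter for testing; counts under 3 were set to 3. The common effect was fitted with edgeR's quasi-likelihood test on all 4 libraries, the line as a block, after filterByExpr, with 1 residual degree of freedom. Levels (RPKM) are counts scaled to the exon length in the table and to TMM library size. Scripts were tested on simulated data. Alternatives were other scalings, other filters, DESeq2 1.42.0 and no block.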

Additional observations from a re-analysis of the deposited data

Results flagged for a closer look

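MIR17HG was picked out because its folds with CPYPP lay on different sides of 1 in the 2 lines, at -0.12 on the log2 scale in MDA-MB-231 (138 and 93 counts) and 1.12 in MDA-MB-435 (190 and 320 counts), a difference of 1.24. With 1 library per condition this difference was not tested, and the interval of the MDA-MB-231 fold (0.699 to 1.21) includes 1.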

How the results depend on the processing

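No pairing of libraries beyond the cell line was possible, because each condition has 1 library and the labels carry no replicate numbers to pair. No replicate was left out for that reason. Control and CPYPP libraries were paired only by line, which is the block of the common fit. No fold of the 8 RNAs changed direction under total counts, DESeq2 size factors or upper-quartile scaling. Total counts multiplied the folds by 0.953 in MDA-MB-231 cells and by 0.902 in MDA-MB-435, a log2 shift of -0.15 in the latter, and upper-quartile scaling by 0.967 and 0.926 (-0.11); in MDA-MB-435 this took 2 of the 8 (MIR17HG and MIR31HG) under a fold of 2 with total counts and 1 of them with the upper quartile.

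The counts of all genes past a fold of 2 depended on the filter. In MDA-MB-231, 887 were higher, which became 1679 with no filter, 294 at 50 or more counts and 227 where the whole interval lay beyond 2; the 893 lower became 217 and 106 under the last 2. In MDA-MB-435, 664 higher became 1146, 309 and 230, and 1611 lower became 505 and 253. For the common effect, 737 were higher and 478 lower. Higher and lower genes numbered 607 and 294 with DESeq2, and 1046 and 850 with no filter. With total counts they numbered 843 and 1087, so that more were lower than higher. Without the line as a block edgeR called 0 in either direction (122 higher and 45 lower at an unadjusted p under 0.05). Of the 11 listed genes called, 11 were called with no filter and with total counts, 8 with DESeq2 (not AGO3, KCNQ1OT1 and MIR30DHG) and 0 without the block. Depth limits MIR503HG after CPYPP (16 and 21 counts) and MIR31HG (0 to 29) most.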
